A study of Arabidopsis thaliana with 20 samples.

Results

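The transcripts described here encode the subunits of the 26S proteasome of Arabidopsis thaliana: 44 genes of the 33602 rows in each deposited count table, chosen by locus identifier. They comprise 23 genes of the 20S core (12 of the alpha ring, PAA to PAG, and 11 of the beta ring, PBA to PBG) and 21 genes of the 19S regulatory particle (10 of its RPT ATPases and 11 of its RPN non-ATPases). All 44 passed the filter on low counts, which kept 19954 genes. The members were chosen by function, with earlier results of these data known.

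RNA came from whole rosettes of plants 3 weeks old, and each library was a pool of 5 rosettes. The plants either stayed in control air or were exposed to ozone at 350 nL per litre for 2 hours. Col-0, the wild-type accession, had 4 control and 4 ozone libraries. Plants labelled wrky25 wrky33, a double mutant, and plants labelled wrky75, a single mutant, each had 3 control and 3 ozone libraries. The study addressed how leaves respond to reactive oxygen species formed outside the cell, in the apoplast, and what the transcription factors WRKY25, WRKY33 and WRKY75 contribute.

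The 26S proteasome degrades proteins tagged with ubiquitin. Its 20S core is a barrel whose outer alpha rings gate access to the inner beta rings, where the proteolytic sites lie, and its 19S particle recognises ubiquitin, removes it, and unfolds the substrate with a ring of ATPases. Many plant subunits are encoded by a pair of paralogous genes, and in Arabidopsis the factors NAC053 and NAC078 are known to activate subunit genes when proteasome activity is impaired.

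The libraries held between 20486137 and 20771667 counted reads, and a subunit gene had between 309 and 7794 reads in a library. The transcripts of the mutated genes were not lost. WRKY25 stood at 3.14 to 5.55 CPM (read counts scaled to the library's total, after adjustment by the trimmed mean of M-values) in wrky25 wrky33 controls and at 176 to 223 CPM in its ozone libraries, against 8.38 to 16.1 CPM in Col-0 controls and 104 to 144 CPM in Col-0 under ozone. WRKY33 stood at 224 to 426 CPM in wrky25 wrky33 under ozone and at 320.5 to 729.9 CPM in Col-0 under ozone. WRKY75 stood at 28.0 to 72.8 CPM in wrky75 under ozone and at 48.0 to 129 CPM in Col-0 under ozone. Counts do not show where in a gene the reads lay, so the mutants are named here by their labels only. The root hair list and the seed list each summed to at most 0.201 CPM in every library, and the 5 leaf mesophyll markers summed to 12957 CPM or more.

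Subunit transcripts rose under ozone in all 3 genotypes, and 0 fell by the test. In Col-0, 25 of the 44 genes rose and 0 fell (edgeR's quasi-likelihood test, with p adjusted by Benjamini-Hochberg over all 19954 genes and a threshold of 0.05). Of all genes tested, 33.3% were called higher and 36.4% lower in that comparison. The median log2 fold change was 0.343 over the 44 members and −0.0804 over all genes tested. In wrky25 wrky33, 29 members rose and 0 fell, where 31.1% of all genes were called higher and 33.9% lower, and the members' median was 0.471. In wrky75, 31 rose and 0 fell, against 32% and 36.1% of all genes, with a median of 0.487. The same 25 genes were called in all 3 genotypes and 13 were called in none. The shares of all genes called in all 3 or in none were not computed. Same-numbered libraries of different genotypes deviated together, so the 3 genotypes are not independent repeats. With the replicate number as a block in all 3 genotypes, 29 members rose and 1, PAA1, fell in Col-0 (adjusted p = 0.0158), and 34 rose and 0 fell in each mutant. Only Col-0 had libraries numbered 4. Without them, 28 members rose in Col-0 (median 0.442), 31 in wrky25 wrky33 (0.516) and 35 in wrky75 (0.556), and 0 fell.

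These counts depended on the scaling of the libraries. RLE size factors and DESeq2 each called 31, 35 and 36 members higher and 0 lower in Col-0, wrky25 wrky33 and wrky75. Upper-quartile factors moved the median of all genes in Col-0 to −0.281. With them, 12 members were called higher and 4 lower in Col-0 (AT2G32730, PAA1, PAC1 and PAE2), 19 higher and 1 lower in wrky25 wrky33 (PAC1), and 18 higher and 3 lower in wrky75 (PAA1, PAC1 and PAE2). The members' median stayed above that of all genes, at 0.143 beside −0.281 in Col-0, 0.288 beside −0.271 in wrky25 wrky33 and 0.302 beside −0.295 in wrky75. Shares of all genes called are given only for the fit with trimmed mean of M-values factors, all 20 libraries and no block. Counts of members called under every other setting in this report have no such share beside them. In bulk rosettes, a change in RNA per cell and a change in the number of cells of a type cannot be told apart. The 5 leaf mesophyll markers all fell under ozone in each genotype, in Col-0 from sums of 28479 to 40562 CPM in control libraries to 12957 to 24642 CPM in ozone libraries. Of 5 markers of dividing cells 2 fell in each genotype. That lay near the 36.4%, 33.9% and 36.1% of all genes called lower in Col-0, wrky25 wrky33 and wrky75. The median log2 fold change of these 5 was −0.133 in Col-0. Their Col-0 sums overlapped, at 57.9 to 83.8 CPM in control and 43.8 to 61.5 CPM under ozone. The flower list had 1 tested marker of 3, AG, which fell by 1.86 in Col-0, 1.11 in wrky25 wrky33 and 2.13 in wrky75 on the log2 scale, and the list's Col-0 sums went from 1.76 to 2.96 CPM to 0.418 to 0.914 CPM. The part of these markers in the members' rise was not tested.

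**Figure D1:**
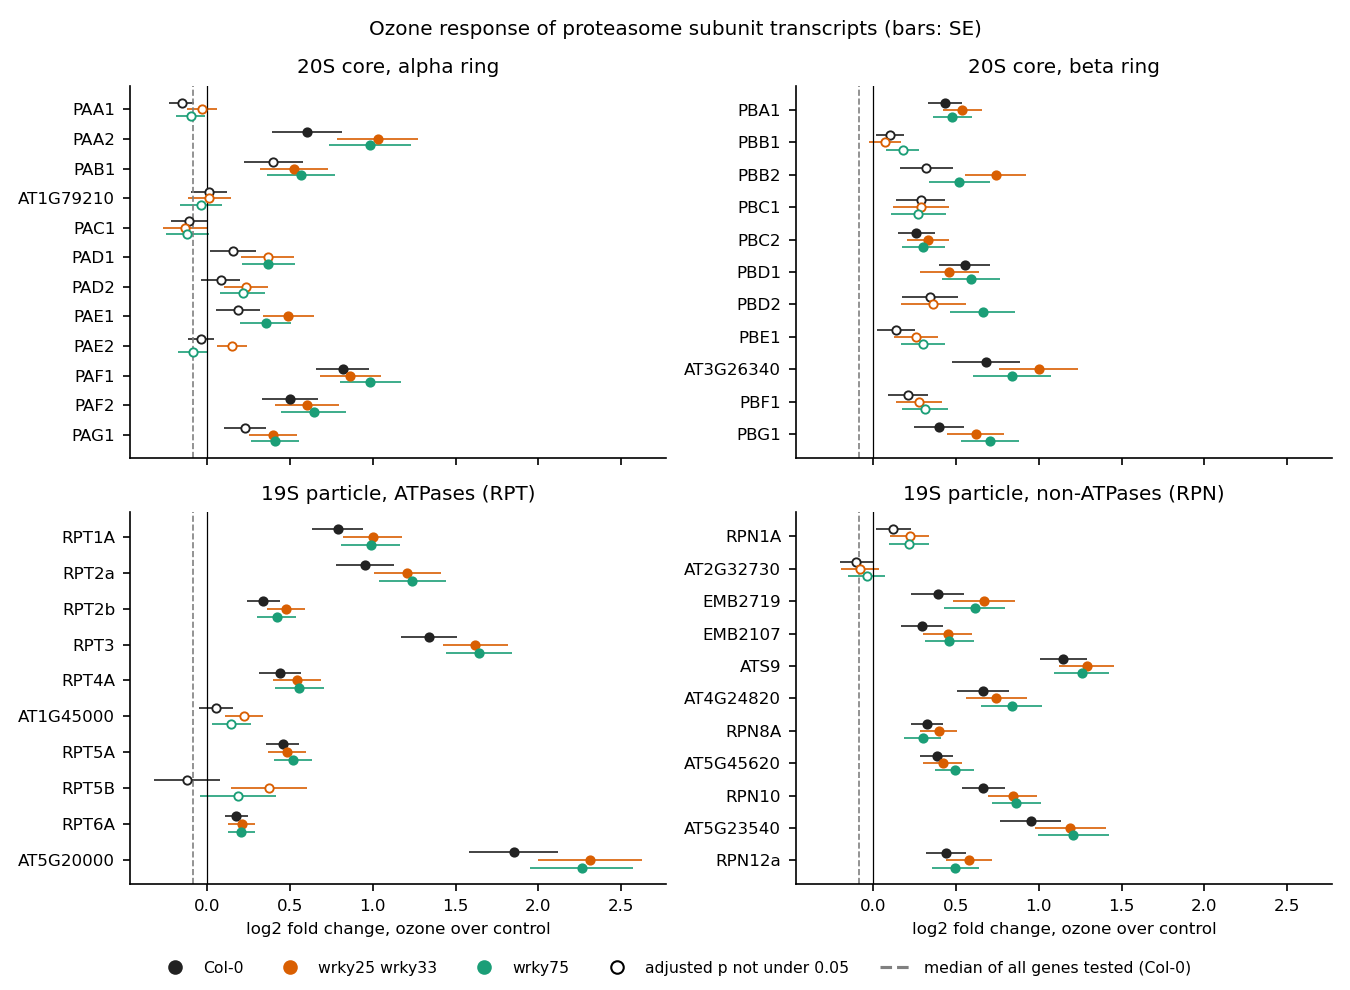
Log2 fold change of ozone over control (x axis, edgeR estimate, bars show 1 SE) for the 44 subunit genes (y axis), by class and genotype. Filled points passed the adjusted threshold of 0.05 and open points did not, and the dashed line is the median of all genes tested in Col-0, −0.0804. AT5G20000 and RPT3 in the ATPase ring lie farthest to the right.

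The 19S particle held more of the called genes than the core. In Col-0, 17 of its 21 genes rose, with a median log2 fold change of 0.44, beside 8 of 23 genes of the core, with a median of 0.263. By class, 8 of 10 RPT genes (median 0.449), 9 of 11 RPN genes (0.391), 5 of 11 beta ring genes (0.324) and 3 of 12 alpha ring genes (0.175) rose. In wrky25 wrky33, 17 of 21 genes of the 19S particle rose (median 0.544) beside 12 of 23 of the core (0.369), and in wrky75 it was 17 of 21 (0.521) beside 14 of 23 (0.372). Of all genes tested, 33.3%, 31.1% and 32% were called higher in Col-0, wrky25 wrky33 and wrky75, so the 8 of 23 of the core in Col-0 lay near that share and the 3 of 12 of the alpha ring below it. The difference between the particles was described and not tested. When each Col-0 ozone library was set against the control library of the same number, the core median lay below the 19S median in all 4 pairs, by 0.0976 to 0.369 on the log2 scale.

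In the alpha ring, whose subunits form the gate of the barrel, PAF1 (chr5:17159044-17161156, minus strand of TAIR10.1) and PAA2 (chr2:2234019-2236470, plus strand) had the highest fold changes in Col-0. PAF1 stood at 76.2, 88.1, 81.8 and 65.3 CPM in the 4 Col-0 controls and at 102, 162, 161 and 125 CPM in the 4 ozone libraries, in the order of replicate numbers used throughout. In wrky25 wrky33 it went from 74.3, 82.6 and 72 to 117, 148 and 152 CPM, and in wrky75 from 71.4, 83 and 81.4 to 115, 181 and 171 CPM. Every ozone library lay above every control library of its genotype. The log2 fold change in Col-0 was 0.82 ± 0.16 (SE), a 1.77-fold rise (adjusted p = 0.000174).

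PAA2 and PAA1, the paralogues for 1 alpha subunit, differed in their response. PAA2 stood at 58.4, 73.1, 61 and 64.9 CPM in Col-0 controls and at 64.2, 115, 130 and 83 CPM under ozone. The Col-0 groups overlapped through ozone library 1. In wrky25 wrky33 PAA2 went from 55.8, 56.8 and 56.8 to 83.5, 123 and 139 CPM, and in wrky75 from 53.1, 64 and 56.1 to 73.5, 131 and 138 CPM, with no overlap in either mutant. PAA2 rose in Col-0 by 0.61 ± 0.21 on the log2 scale (adjusted p = 0.0162), a call that was lost without ozone library 2 or 3 of Col-0. PAA1 had the lowest fold change of the ring, with 71.7, 78.2, 77.8 and 70.6 CPM in Col-0 controls and 65.3, 71.1, 73.4 and 59 CPM under ozone. In wrky25 wrky33 PAA1 was at 68.3, 71.4 and 73.5 and then 65.2, 71.8 and 72.2 CPM, and in wrky75 at 71.5, 72.7 and 73.2 and then 65.1, 69.5 and 68.8 CPM. Its groups overlapped in Col-0 and wrky25 wrky33, while in wrky75 all ozone libraries were lower. The log2 fold change of PAA1 in Col-0, −0.15 ± 0.08, did not pass the test (adjusted p = 0.0886), but did with the replicate number as a block (−0.15, adjusted p = 0.0158).

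PAF2 was the third alpha ring gene called in Col-0 (log2 fold change 0.50 ± 0.17, adjusted p = 0.0123). The other 8 alpha ring genes had log2 fold changes between −0.10 (PAC1) and 0.40 (PAB1). PAB1 and PAG1 joined the called genes in both mutants, PAE1 too, and PAD1 in wrky75 only at the threshold used, with log2 fold changes of 0.37 there and 0.37 in wrky25 wrky33 (adjusted p = 0.0474 and 0.0513). These differences between genotypes were not past the test for the difference itself, given further on.

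In the beta ring, AT3G26340 (chr3:9650316-9652936, minus strand) led with PBD1. By its usual name it is grouped with PBE1, as a gene for the chymotrypsin-like subunit. AT3G26340 stood at 18.1, 20.4, 20.1 and 14.1 CPM in Col-0 controls and at 20.9, 34.7, 38.7 and 22.2 CPM under ozone. In wrky25 wrky33 it went from 18.3, 19.1 and 17.6 to 27, 38.1 and 45.2 CPM, and in wrky75 from 15.7, 20.8 and 17.8 to 24.4, 33.9 and 38.7 CPM. No group overlapped its control, though Col-0 ozone library 1 lay only just above the highest control. The rise in Col-0 was 0.68 ± 0.20 on the log2 scale, or 1.61-fold (adjusted p = 0.0063). PBE1, its paralogue, stood at 81.2, 97.2, 91.7 and 83 CPM in Col-0 controls and at 83.2, 104, 116 and 85.3 CPM under ozone. In the mutants PBE1 was at 80.8, 83.2 and 82.5 and then 87.1, 98.8 and 109 CPM in wrky25 wrky33, and at 81, 86.3 and 85.1 and then 86.5, 112 and 112 CPM in wrky75. The Col-0 groups overlapped and those of the mutants did not, and PBE1 did not pass the test in Col-0 (0.14 ± 0.12, adjusted p = 0.292).

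PBD1, the subunit gene of the beta ring with the second highest fold change (chr3:8009540-8010862, minus strand), stood at 31.9, 32, 32 and 20.1 CPM in Col-0 controls and at 34.2, 47.5, 52.7 and 35.8 CPM under ozone. Control library 4 lay well below the other 3 controls. In wrky25 wrky33 PBD1 went from 30.7, 30.8 and 30.1 to 37.4, 41.2 and 47.7 CPM, and in wrky75 from 30, 30.7 and 32 to 39.6, 48.7 and 51.3 CPM, without overlap in any genotype. PBD1 rose by 0.55 ± 0.15 on the log2 scale in Col-0 (adjusted p = 0.00357). It overlaps AT3G22620 by 51 bases on the opposite strand, and the library kit does not mark strand. PBB1, one of the 2 genes for the trypsin-like subunit, had the lowest fold change of the ring, at 86.1, 87.9, 86.3 and 79.5 CPM in Col-0 controls and 90.1, 101, 94.8 and 80 CPM under ozone. In wrky25 wrky33 PBB1 was at 79.5, 89.4 and 84.9 and then 86.4, 89.7 and 91.3 CPM, and in wrky75 at 82.5, 83.5 and 83.8 and then 83.6, 106 and 93.7 CPM. Its groups overlapped in all 3 genotypes, and the Col-0 fold change of 0.11 ± 0.09 did not pass the test (adjusted p = 0.277).

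The other called beta ring genes in Col-0 were PBA1, which encodes the caspase-like subunit (0.44 ± 0.10, adjusted p = 0.000961), PBG1 (0.40 ± 0.15, adjusted p = 0.0235) and PBC2 (0.26 ± 0.11, adjusted p = 0.0411). PBB2, PBC1, PBD2, PBE1 and PBF1 were not called there, with log2 fold changes from 0.14 to 0.34. With the replicate number as a block, PBB2 (adjusted p = 0.018), PBC1 (0.0418), PBD2 (0.0142) and PAB1 of the alpha ring (0.018) passed in Col-0 too.

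**Figure D2:**
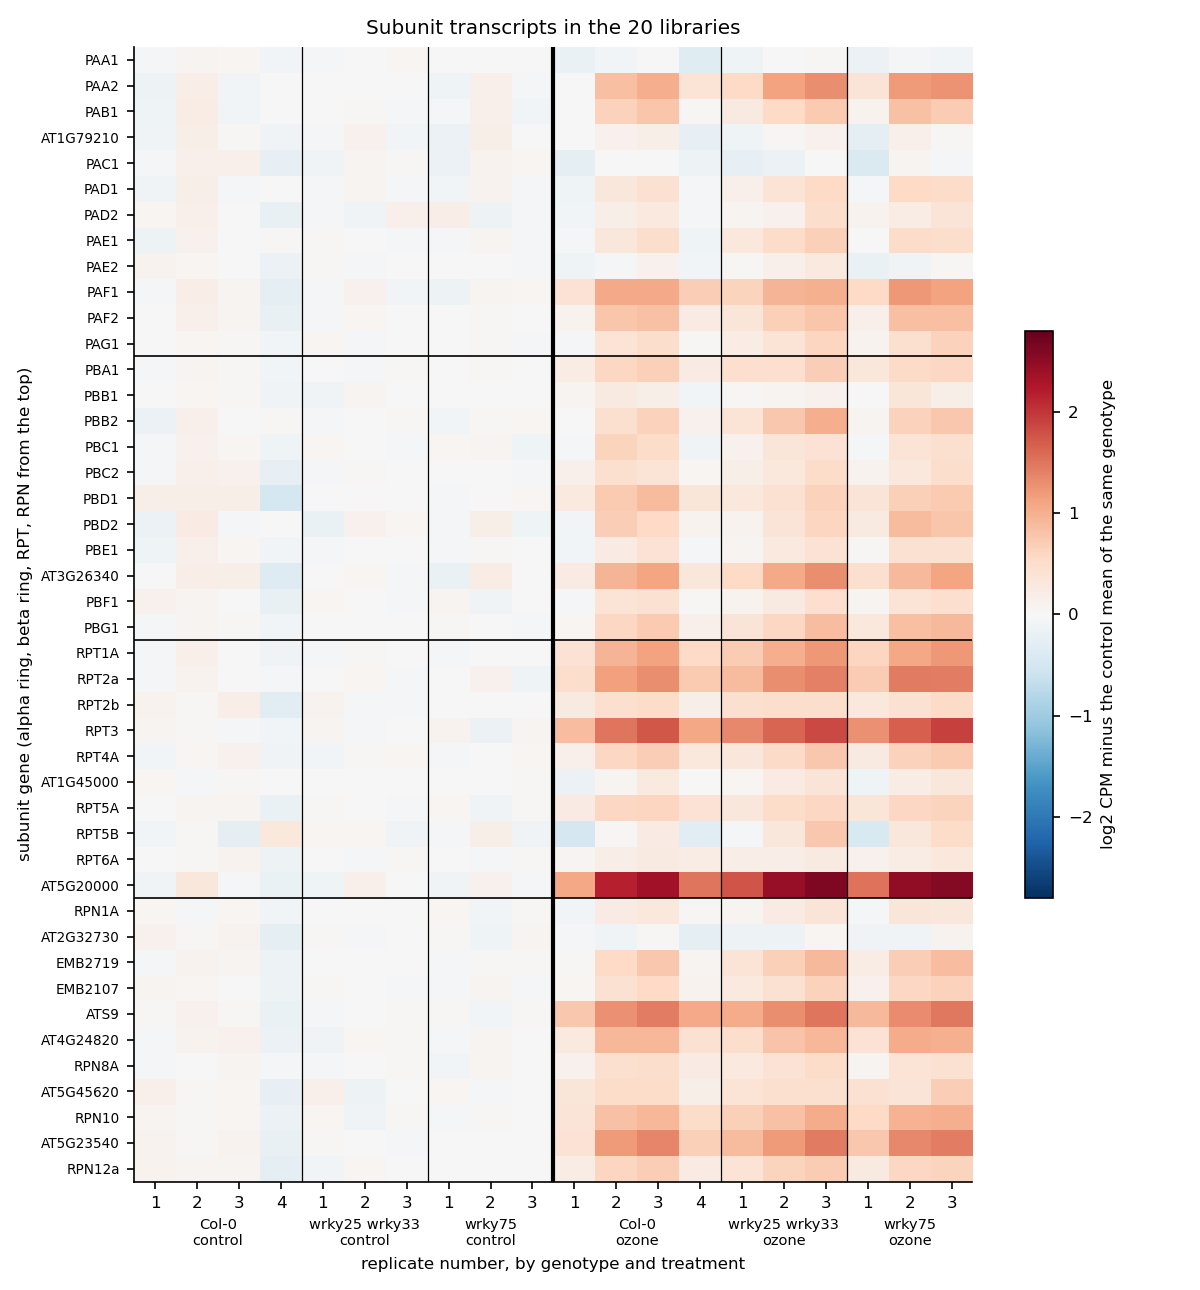
Log2 CPM of each subunit gene (rows) in each of the 20 libraries (columns), minus the control mean of the same genotype. Red is higher and blue lower, and the columns carry the replicate numbers of the labels. The ozone libraries numbered 2 and 3 are the reddest of each genotype.

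The RPT subunits form the ATPase ring that unfolds substrates, and the strongest fold changes of all 44 members lay here. AT5G20000, annotated as an AAA-type ATPase (chr5:6756633-6759800, plus strand), stood at 29.8, 39.8, 31.2 and 28.2 CPM in Col-0 controls and at 67.2, 145, 164 and 89.8 CPM under ozone. In wrky25 wrky33 it went from 27.7, 33.2 and 30.1 to 102, 165 and 184 CPM, and in wrky75 from 28.8, 33.4 and 30.1 to 88.6, 171 and 184 CPM. No groups overlapped, and ozone library 1 was the lowest ozone library of each genotype. The rise was 1.85 ± 0.27 on the log2 scale in Col-0 (3.62-fold, adjusted p = 6.61e-06), 2.31 ± 0.31 in wrky25 wrky33 (adjusted p = 4.54e-06) and 2.26 ± 0.31 in wrky75 (adjusted p = 4.65e-06).

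RPT6A (chr5:6751798-6755315, plus strand) lies 1318 bases upstream of AT5G20000 on the same strand and is its paralogue among the members. It stood at 58.2, 59, 61.1 and 52 CPM in Col-0 controls and at 60.3, 65.6, 68.1 and 66.5 CPM under ozone. In wrky25 wrky33 RPT6A was at 59.7, 56.9 and 60 and then 67.1, 67 and 70.2 CPM, and in wrky75 at 59.2, 55.9 and 60.1 and then 63.7, 67.5 and 71.3 CPM. The Col-0 groups overlapped, those of the mutants did not. Its rise of 0.18 ± 0.07 in Col-0 passed the test (adjusted p = 0.0319), but turned to −0.0232 (adjusted p = 0.782) with upper-quartile factors. Its call was also lost without Col-0 control library 1 or without ozone library 2, 3 or 4. The coding sequences of the pair are 94.4% identical over 1260 bases, and 12.0% of their 50-base windows are shared, so reads from such stretches could be split between them in counting.

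RPT3, a single-copy ATPase gene here (chr5:23569052-23571854, plus strand), stood at 91.6, 89.3, 85.2 and 82.8 CPM in Col-0 controls and at 158, 247, 292 and 186 CPM under ozone. In wrky25 wrky33 it went from 85.4, 77.9 and 80.4 to 205, 251 and 291 CPM, and in wrky75 from 84.8, 71.2 and 83.8 to 193, 256 and 301 CPM. All ozone libraries were far above all controls. RPT3 rose 2.53-fold in Col-0 (1.34 ± 0.17, adjusted p = 1.52e-06), 3.07-fold in wrky25 wrky33 and 3.13-fold in wrky75.

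RPT2a, which has a known role in leaf size and meristem maintenance (chr4:14312283-14314600, plus strand), stood at 120, 131, 120 and 117 CPM in Col-0 controls and at 171, 272, 298 and 203 CPM under ozone. In wrky25 wrky33 RPT2a went from 111, 115 and 108 to 205, 272 and 294 CPM, and in wrky75 from 113, 124 and 105 to 188, 312 and 307 CPM. Its groups were apart in every genotype, with a rise of 0.95 ± 0.17 in Col-0 (adjusted p = 9e-05). RPT2b, its paralogue (chr2:8692567-8695111, plus strand), stood at 51.8, 49.3, 54.9 and 39.5 CPM in Col-0 controls and at 58, 66.2, 69.1 and 54.5 CPM under ozone. In wrky25 wrky33 RPT2b was at 53.1, 48 and 47.6 and then 67.1, 70 and 70.1 CPM, and in wrky75 at 48.7, 48.1 and 48.2 and then 59, 65.1 and 70.2 CPM. The Col-0 groups touched, with ozone library 4 below control library 3, and the smaller rise of 0.34 ± 0.10 also passed (adjusted p = 0.00529).

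RPT5B had the lowest fold change of the ATPases (chr1:2936528-2939363, minus strand). It stood at 24.8, 26.5, 21.8 and 32.1 CPM in Col-0 controls and at 18.7, 26.7, 30.3 and 21.3 CPM under ozone, at 24.3, 24.4 and 21.8 and then 22.7, 29.3 and 39.5 CPM in wrky25 wrky33, and at 22.4, 26.1 and 21.9 and then 17.5, 29.1 and 33.5 CPM in wrky75. All groups overlapped, and −0.12 ± 0.20 in Col-0 did not pass (adjusted p = 0.608). RPT1A (0.79 ± 0.15, adjusted p = 0.000183), RPT5A (0.46 ± 0.10, adjusted p = 0.000542) and RPT4A (0.44 ± 0.13, adjusted p = 0.00508) rose in Col-0. AT1G45000, the paralogue of RPT4A among the members, did not pass (0.05 ± 0.10, adjusted p = 0.642).

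Among the RPN subunits, which form the base scaffold and the lid, ATS9, the lid subunit RPN6 (chr1:10180302-10182808, plus strand), stood at 107, 113, 107 and 91.7 CPM in Col-0 controls and at 176, 255, 280 and 217 CPM under ozone. In wrky25 wrky33 it went from 102, 105 and 106 to 213, 256 and 295 CPM, and in wrky75 from 106, 98.4 and 106 to 194, 260 and 287 CPM. The groups did not overlap in any genotype, and the rise in Col-0 was 2.21-fold (1.15 ± 0.14, adjusted p = 1.39e-06). AT5G23540 is annotated in the Mov34/MPN/PAD-1 family, to which the lid's deubiquitinase belongs (chr5:7937630-7939604, plus strand). It stood at 73.8, 71, 73.8 and 59.8 CPM in Col-0 controls and at 92.1, 158, 179 and 110 CPM under ozone, a rise of 0.95 ± 0.18 (adjusted p = 0.000171). In wrky25 wrky33 AT5G23540 went from 69.9, 68.1 and 66.7 to 125, 155 and 187 CPM, and in wrky75 from 68.2, 68.2 and 69.7 to 116, 175 and 186 CPM. Here too all ozone libraries lay above their controls.

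AT2G32730, annotated as the base scaffold subunit Rpn2, had the lowest fold change of the RPN genes (chr2:13879959-13885736, plus strand). It stood at 136, 127, 134 and 104 CPM in Col-0 controls and at 121, 117, 129 and 103 CPM under ozone. In wrky25 wrky33 it was at 135, 131 and 133 and then 121, 120 and 137 CPM, and in wrky75 at 130, 118 and 135 and then 120, 118 and 136 CPM. The groups overlapped throughout, and −0.10 ± 0.10 in Col-0 did not pass (adjusted p = 0.379). RPN1A, the other large base scaffold, was also not called (0.12 ± 0.10, adjusted p = 0.289). RPN10, a ubiquitin receptor (0.67 ± 0.13, adjusted p = 0.000143), and AT4G24820, annotated as Rpn7 (0.67 ± 0.16, adjusted p = 0.00115), rose, the latter with an overlap of 762 bases with AT4G24810 on the same strand. The remaining 5, RPN12a, EMB2719, AT5G45620, RPN8A and EMB2107, rose by 0.30 to 0.44. EMB2107, which encodes an RPN5 subunit, was the least stable call: 15 of 29 alternative settings changed it in Col-0. EMB2719, PBC2, PBG1 and PAF2 also lost their Col-0 call without ozone library 2 or 3. PAD2, PBB2, PBF1 and RPT5B overlap a gene on the opposite strand by 53 to 138 bases, and reads of the 2 strands cannot be told apart there.

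Not all rises separated the libraries. In Col-0, 17 members had every ozone library above every control library, 0 had every one below, and 27 overlapped, where 29.3% and 30% of all genes tested were so separated upward and downward. In wrky25 wrky33, 35 were separated upward and 0 downward (33.9% and 38.2% of all genes). In wrky75, 29 were separated upward and 1, PAA1, downward (33.4% and 38.8% of all genes).

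The spread among ozone libraries followed the replicate number in the labels. The 44 members summed to 3562, 4912, 5291 and 3845 CPM in Col-0 ozone libraries 1 to 4, to 4092, 4827 and 5413 CPM in wrky25 wrky33, and to 3819, 5203 and 5427 CPM in wrky75. Control sums ran from 2903 to 3366 CPM. Library 1 was the lowest and library 3 the highest under ozone in each genotype. Against the control of the same number, the members' median log2 ratio in Col-0 was 0.113, 0.456, 0.542 and 0.262 for numbers 1 to 4, in wrky25 wrky33 0.285, 0.498 and 0.66 for numbers 1 to 3, and in wrky75 0.156, 0.503 and 0.662. Mesophyll marker sums were highest in the ozone libraries numbered 1, at 24642 CPM in Col-0, 22850 CPM in wrky25 wrky33 and 24097 CPM in wrky75, and their part in the spread was not tested. Leaving out number 1 from every group gave 29, 33 and 34 called members, all higher, in Col-0, wrky25 wrky33 and wrky75, and leaving out numbers 1 and 4 gave 37, 38 and 39.

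**Figure D3:**
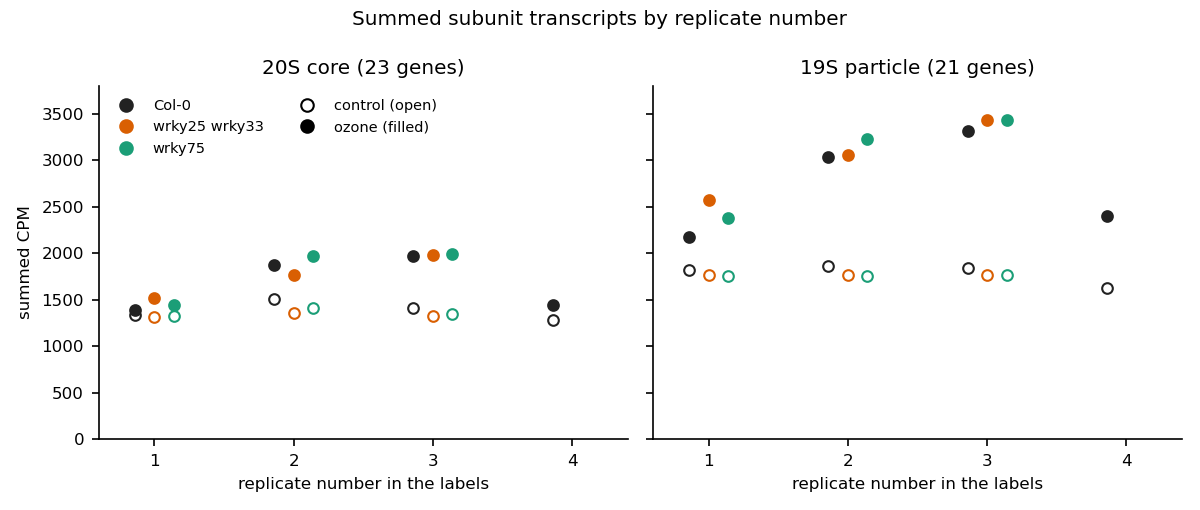
Summed CPM of the core (left, 23 genes) and 19S particle (right, 21 genes) on the y axis, by replicate number on the x axis. Open points are control and filled points ozone libraries, coloured by genotype. For the 19S particle, filled points run from 2175 to 3436 CPM and all lie above the open points, which run from 1626 to 1863 CPM.

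Levels of different genes were compared per kilobase of exon, with the member genes of a subunit added up. In Col-0 controls, the 14 core subunits had a median of 81.5 CPM per kb, from 54 for PBG to 103 for PAA. The 17 subunits of the 19S particle had a median of 48.5 CPM per kb, from 21.3 for RPN9 to 102 for RPT2. Under ozone the medians were 94.6 CPM per kb for the core and 91.7 CPM per kb for the 19S particle, and RPT2 was highest at 180 CPM per kb. The middle 19S subunit was RPN6 in Col-0 controls and RPT4 under ozone. RPN6 itself went from 48.5 to 107 CPM per kb and RPT4 from 80.2 to 91.7, so the shift of the median is not the change of a typical subunit. In wrky25 wrky33 the core median went from 79.8 to 95.6 CPM per kb and the 19S median from 48.2 to 98.2. In wrky75 they went from 80.9 to 97.2 and from 48.2 to 97.5 CPM per kb. These sums leave out 9 paralogues that are not among the 44, of PAC, RPT1, RPN1, RPN2, RPN3, RPN5, RPN8, RPN9 and RPN12. With those genes added, a check made after seeing the data, the 19S medians in controls were 53.6, 53.2 and 53.3 CPM per kb in Col-0, wrky25 wrky33 and wrky75, and the other medians given here kept their values. RPN9, whose value covers AT5G45620 alone, then stood at 45.7 CPM per kb in Col-0 controls, and RPT6 was lowest at 41.7. With and without those genes, the median 19S subunit lay below the median core subunit in controls, and the difference was not tested.

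**Figure D4:**
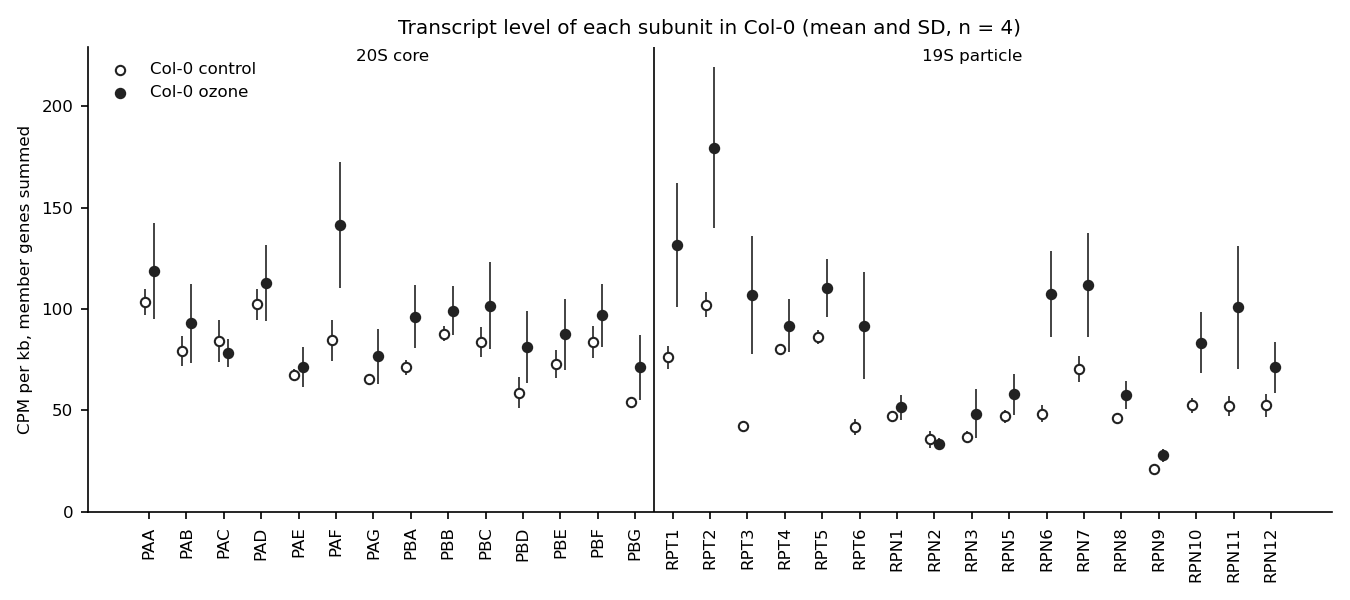
CPM per kilobase of exon (y axis) of each subunit (x axis), summed over its genes among the 44 members, in Col-0. Open points are the mean of 4 control libraries and filled points the mean of 4 ozone libraries, with SD bars. In control most 19S subunits lie below the core subunits, and under ozone RPT2 reaches 180.

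Because both members of a paralogue pair are measured in the same library, their ratio does not depend on library scaling beyond the pseudocount of 0.5 CPM. The ratio changed with ozone in 10 of 13 pairs (exact permutation test, two-sided, ozone labels permuted within genotype over 28000 arrangements, Benjamini-Hochberg over the 13 pairs, with 7.14e-05 the smallest p the design allows). Ratios of other gene pairs were not computed. With 33.3% of all genes called higher and 36.4% lower in Col-0, the 10 of 13 is not shown to be particular to these pairs. The test took the libraries as independent, but same-numbered libraries of different genotypes deviated together, so its p-values may overstate the evidence. Ozone libraries numbered 1 had AT5G20000 over RPT6A log2 ratios of 0.155 in Col-0, 0.604 in wrky25 wrky33 and 0.474 in wrky75. Those numbered 3 had 1.26, 1.38 and 1.36. For AT5G20000 over RPT6A the log2 ratio rose by 1.86 (exact p = 7.14e-05, adjusted 0.000186) and was higher in all ozone libraries of each genotype. Per kilobase of exon, AT5G20000 made up 43.0% ± 3.25 (SD, n = 4) of the pair in Col-0 controls and 69.1% ± 7.94 (n = 4) under ozone. In wrky25 wrky33 its share went from 41.1% ± 2.82 to 74.1% ± 5.86 (n = 3 each), and in wrky75 from 41.6% ± 2.69 to 73.5% ± 7.05 (n = 3 each). Per kilobase of coding sequence, the Col-0 shares were 35.8% ± 3.07 and 62.4% ± 8.72. AT5G20000 was the minor transcript of the pair in control air and the major one under ozone on both lengths.

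PAA2 over PAA1 rose by 0.917 (exact p = 7.14e-05, adjusted 0.000186), and the PAA2 share per kilobase of exon went from 39.9% ± 2.09 to 52.1% ± 6.41 in Col-0. AT3G26340 over PBE1 rose by 0.573 with the same exact p, from a share of 19.8% ± 1.94 to 26.2% ± 2.94. RPT2b over RPT2a fell by 0.692 (exact p = 0.000143, adjusted 0.00031), from 26.9% ± 2.69 to 19.8% ± 2.75, with overlapping Col-0 groups. PAB, PAE, PAF, PBB, RPT4 and RPT5 also changed, by −0.473 (AT1G79210 over PAB1), −0.318 (PAE2 over PAE1), −0.321 (PAF2 over PAF1), 0.383 (PBB2 over PBB1), −0.362 (AT1G45000 over RPT4A) and −0.367 (RPT5B over RPT5A). The ratios of PAD (exact p = 0.167), PBC (0.582) and PBD (0.321) did not pass. Outside the RPT6 pair, coding sequences of the pairs were 80.7% to 89.6% identical and shared at most 0.578% of 50-base windows.

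**Figure D5:**
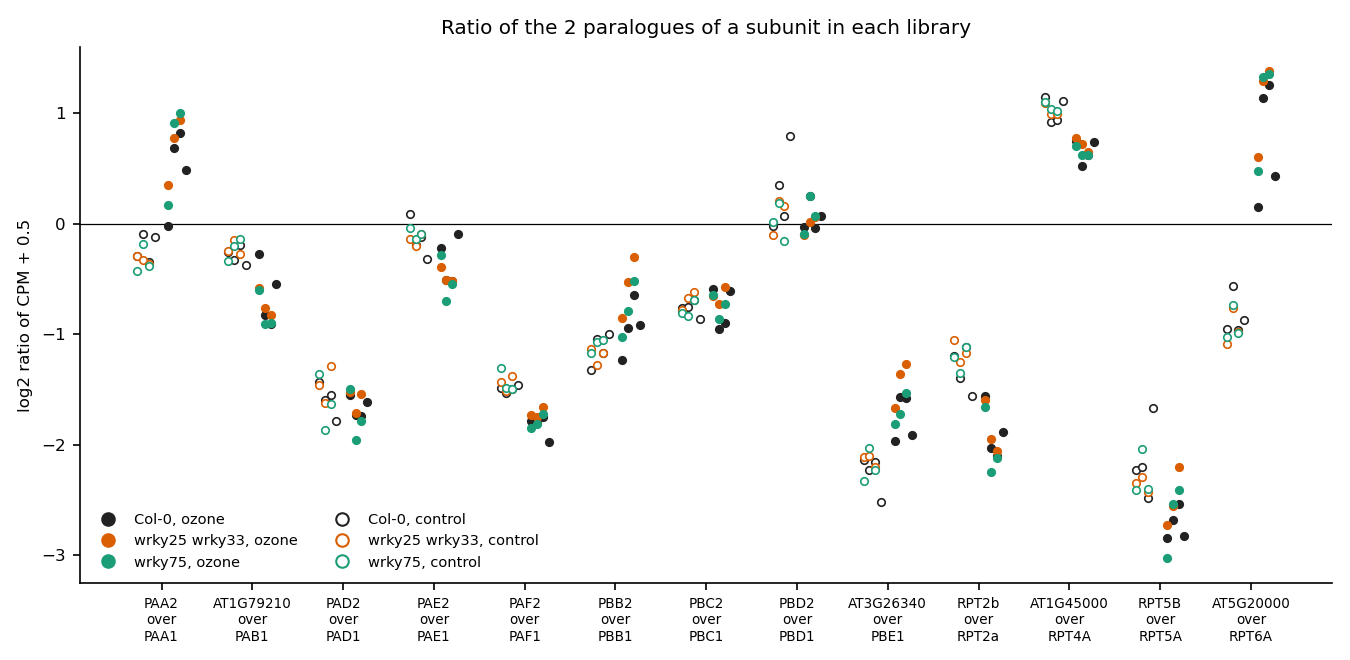
Log2 ratio of the 2 paralogues (y axis, CPM + 0.5 each) for 13 pairs (x axis), 1 point per library. Open points are control and filled points ozone libraries, coloured by genotype. The AT5G20000 over RPT6A ratio lies below 0 in all controls and above 0 in all ozone libraries.

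The mutants did not differ from Col-0 in any subunit transcript by the test. In controls, 0 members were called in wrky25 wrky33 against Col-0 (0.015% of all genes were called higher and 0.01% lower) and 0 in wrky75 against Col-0 (0.015% and 0.01%). Under ozone, 0 were called in wrky25 wrky33 (1.56% and 3.77%) and 0 in wrky75 (0.02% and 0.00501%). For the difference between the ozone responses, 0 were called in wrky25 wrky33 against Col-0 (0.266% and 0.692%) and 0 in wrky75 against Col-0 (0% and 0%). In all 6 comparisons 0 members had an unadjusted p under 0.05 by edgeR, and DESeq2 called 0 as well. With the replicate number as a block 0 were called in each, and 1 member had an unadjusted p under 0.05 in wrky25 wrky33 under ozone and 1 in its response difference, both against Col-0. Under ozone, log2 differences from Col-0 ran from −0.09 to 0.37 in wrky25 wrky33 and from −0.01 to 0.34 in wrky75. Their medians were 0.109 and 0.112, but only Col-0 had libraries numbered 4. Without those, the medians were 0.0453 in wrky25 wrky33 and 0.063 in wrky75. Without numbers 1 and 4 they were −0.0304 and 0.0524. These comparisons share the Col-0 libraries. A miss of the threshold does not show that the genotypes were alike.

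Of the 44 promoters (250 bases before to 50 after the annotated start, RefSeq, TAIR10.1), 25 (56.8%) held TGGGC or its reverse complement GCCCA, against 6998 of 26711 protein-coding promoters (26.2%). TGGGC is the core of the element through which NAC053 and NAC078 are known to bind subunit promoters, and the same letters also begin TGGGCC and TGGGCT, which belong to other plant promoter elements. By class, the letters were in 9 of 11 beta ring, 6 of 12 alpha ring, 5 of 10 RPT and 5 of 11 RPN promoters. In Col-0, 14 of 25 members with a match rose (median log2 fold change 0.342) and 11 of 19 without (0.345), beside 1713 of 5723 tested genes with a match (29.9%) and 4770 of 13618 without (35%). The difference was not tested. The 250 bases before the start are shown for RPT3 (chr5:23568802-23569051) and RPT2a (chr4:14312033-14312282), 2 strongly raised ATPase genes that hold matches, and for the RPT6 pair, AT5G20000 (chr5:6756383-6756632) and RPT6A (chr5:6751548-6751797), which differ most in response. All are on the plus strand, 5′ to 3′, and capitals mark TGGGC and GCCCA.
RPT3: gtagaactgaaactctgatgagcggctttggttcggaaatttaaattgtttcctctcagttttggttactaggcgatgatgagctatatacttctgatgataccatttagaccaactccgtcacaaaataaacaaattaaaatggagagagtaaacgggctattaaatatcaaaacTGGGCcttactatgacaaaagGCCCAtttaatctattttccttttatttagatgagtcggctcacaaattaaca
RPT2a: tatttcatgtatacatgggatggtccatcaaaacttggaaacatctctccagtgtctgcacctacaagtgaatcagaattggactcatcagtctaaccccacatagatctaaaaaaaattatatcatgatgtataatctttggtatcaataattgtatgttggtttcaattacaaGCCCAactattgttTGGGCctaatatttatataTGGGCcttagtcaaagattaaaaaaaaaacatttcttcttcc
AT5G20000: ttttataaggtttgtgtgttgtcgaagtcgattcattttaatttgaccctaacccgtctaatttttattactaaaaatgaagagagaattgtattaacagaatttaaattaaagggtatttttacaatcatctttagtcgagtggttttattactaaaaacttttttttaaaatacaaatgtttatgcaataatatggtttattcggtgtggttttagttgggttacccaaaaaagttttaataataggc
RPT6A: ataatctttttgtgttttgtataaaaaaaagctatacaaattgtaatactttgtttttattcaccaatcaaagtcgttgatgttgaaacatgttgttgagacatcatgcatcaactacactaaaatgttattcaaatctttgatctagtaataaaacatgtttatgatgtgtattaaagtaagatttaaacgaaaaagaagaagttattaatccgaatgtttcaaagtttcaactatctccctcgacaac
RPT3 shows 2 matches and RPT2a 3, all nearer to the start than to the far end of the window. Neither promoter of the RPT6 pair holds the letters in this window. A match is a description of letters, not of a bound site.

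Genes that work with the proteasome were counted from lists of related functions. Both NAC factors rose in Col-0 under ozone. NAC053 stood at 6.22 to 12.6 CPM in controls and at 97.7 to 145 CPM under ozone (3.80 ± 0.20 on the log2 scale, adjusted p = 1.36e-11). NAC2, the RefSeq symbol of AT5G04410, which has ANAC078 as a synonym, stood at 60.7 to 68.8 and then 138 to 199.6 CPM (1.39 ± 0.10, adjusted p = 2.03e-09). In wrky25 wrky33 under ozone NAC053 reached 57.0 to 74.8 CPM and was lower than in Col-0 by the test (log2 difference −0.96, adjusted p = 0.00423). The difference in its ozone response did not pass (−0.74, adjusted p = 0.336), and no subunit gene was called in either comparison. NAC2 did not pass under ozone in wrky25 wrky33 against Col-0 (log2 difference 0.243). The sums of the 2 factors overlapped there, at 242.9 to 297.6 CPM in wrky25 wrky33 and 235.5 to 344.2 CPM in Col-0. The part of these factors in the subunit response was not tested.

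Among 10 further subunit genes outside the 44, 7 rose and 1 fell in Col-0. The one that fell was RPN12b (−1.68 ± 0.43), and the highest was AT1G75990 (0.85 ± 0.14). RPN12b lay near the floor, at 0.334 to 1.25 CPM in Col-0 controls and 0.229 to 0.366 CPM under ozone, and these groups overlapped. Of 4 tested assembly factors and activators, only PA200, a proteasome activator, rose (1.36 ± 0.17, adjusted p = 1.58e-06), and the maturation factor AT1G67250 did not pass (0.21 ± 0.15). In the CDC48 list, the segregase that extracts substrates for the proteasome, 5 of 6 genes rose, led by AtCDC48B (3.10 ± 0.37, adjusted p = 8.25e-07) and CDC48 (1.60 ± 0.18). Of 7 ubiquitin and E1 genes, 6 rose and 1 fell, with UBQ10 highest (2.03 ± 0.16). Sequence shared among the ubiquitin genes was not measured, and how reads that map to several places were counted is not stated. Shuttle receptors were mixed, with 4 of 7 higher, among them DDI1 (0.84 ± 0.12), and 2 lower, among them RAD23C (−0.90 ± 0.14). Of 4 deubiquitinases, 2 rose and 2 fell, from −0.96 ± 0.12 for UCH1 to 0.47 ± 0.10 for UBP6. In autophagy, the other large degradation route, 7 of 11 genes rose and 1 fell, with a median log2 fold change of 0.55. Beside these counts stand the 33.3% of all genes called higher and 36.4% called lower, and lists of so few genes were described and not tested. The 2 of 4 deubiquitinases in each direction lay near those shares.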

How the data were processed

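RNA of 20 libraries was sequenced from kits that do not mark strand. The authors deposited whole-number read counts per gene, and the submitters' processing notes name FastQC, TopHat2, SAMtools, HTSeq and the build TAIR10, with no versions. Of 33323 nuclear loci counted, 27998 were also in the RefSeq annotation of TAIR10.1. Of these, 27936 lay on the same chromosome with ends within 2000 bases. Exon lengths, coding sequences and promoters were taken from RefSeq, whose gene models may differ from those used for counting. How reads that map to several places were counted is not stated per the labels, which bears on near-identical paralogues. Replicates differed by more than sampling noise (chi-square per degree of freedom of at least 6.74).

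Counts were fitted in edgeR 4.0.16 (R 4.3.3): trimmed mean of M-values factors, filterByExpr, 1 quasi-likelihood fit of the 6 group means over all 20 libraries, and Benjamini-Hochberg adjustment over 19954 genes with a threshold of 0.05. CPM used the scaled library sizes. Each SE of a log2 fold change was derived as its absolute value divided by the square root of the test's F statistic. Two-sided exact permutation tests were used for paralogue ratios, with a pseudocount of 0.5 CPM. Alternatives were RLE and upper-quartile factors, no filter, DESeq2 1.42.0, fits of the compared groups only, the replicate number as a block, and each library left out. Libraries were also left out by number: 1, 4, or 1 and 4. The members and lists were chosen with earlier results of these data known. Values in every library are given for, in Col-0, the 2 highest and the lowest fold changes of each class and both genes of the 4 pairs whose ratio changed most. Loci were assigned to subunits by their usual names. The sources speak of 3 biological replicates, and Col-0 has 4 libraries per group.

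Same-numbered Col-0 control and ozone libraries deviated together from their group means (correlations across genes of 0.11 to 0.382, all 4 above 0.1), so the numbers were taken to pair them. Between control and ozone, correlations were not all above 0.1 in wrky25 wrky33 (−0.0807 to 0.0681) or wrky75 (−0.0123 to 0.271). Same-numbered ozone libraries of different genotypes also deviated together. Their correlations were 0.473 to 0.677 between Col-0 and wrky75, 0.314 to 0.582 between Col-0 and wrky25 wrky33, and 0.347 to 0.592 between the mutants. In control they were 0.179 to 0.473 between Col-0 and wrky25 wrky33 and 0.328 to 0.453 between the mutants. Between Col-0 and wrky75 controls they ran from 0.0941 to 0.483, not all above 0.1.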

Additional observations from a re-analysis of the deposited data

Results flagged for a closer look

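PBD1 in the Col-0 controls had 1 library, number 4, at 20.1 CPM, well apart from the other 3 at 31.9 to 32.0 CPM. It was found by a gap test within groups of 4 libraries, run on 32 groups, and chance gives about 1 in 20 such groups. The cause was not tested.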

How the results depend on the processing

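No member changed its call between genotypes under any alternative run: 0 were called in each of the 6 genotype comparisons. Upper-quartile factors gave 16 called members in Col-0 in place of 25, and turned RPT6A in Col-0 to −0.0232; the cause was not tested. The 29 alternatives otherwise kept the counts of called members within 1.5 times. Leaving out 1 library at a time gave 18 to 31 called members in Col-0, 22 to 33 in wrky25 wrky33 and 22 to 36 in wrky75. The core median minus the 19S median ran from −0.208 to −0.146 in Col-0, from −0.208 to −0.151 in wrky25 wrky33 and from −0.202 to −0.0726 in wrky75, where −0.202 was without ozone library 2, −0.0726 without ozone library 1 and −0.0819 without control library 2. In Col-0 alone, where 4 against 4 libraries allow no exact p below 0.0286, 0 paralogue pairs passed after adjustment over 13 pairs in place of 10, and 6 pairs did not overlap (PAA, PAF, PBE, RPT4, RPT5 and RPT6). Leaving out any 1 library kept 10. With the replicate block, called members were 30 in Col-0 (29 higher and 1 lower), 34 in wrky25 wrky33 and 34 in wrky75, and 11 pairs passed. The block used the number in all 3 genotypes, in the fit and in the paralogue test. Between ozone and control, same-numbered libraries deviated together with every correlation above 0.1 only in Col-0. Member counts were 309 reads or more per library, and counting error was not separated from the spread between libraries.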
